A study of Mus musculus with 4 samples.

Results

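Alpha-adrenergic and histamine receptor genes, grouped here as receptors bound by the antipsychotic risperidone, were followed in single-nucleus RNA-seq of the adult mouse cortex. Binding of the drug to each receptor was not measured in these data. The members are Adra1a, Adra1b, Adra1d, Adra2a, Adra2c, Hrh1, Hrh2 and Hrh3, chosen by gene symbol, and all 8 are among the 32285 genes of the matrices. Wild-type C57BL/6J mice received risperidone intraperitoneally at 4 mg/kg each day or saline, beginning at postnatal day (PND) 22 and lasting 21 days, and were then kept without drug until cortex was taken at PND 90. The risperidone stock was made in DMSO, whereas the other group is named saline only. For each condition, 1 right hemicortex from each of 5 male and 5 female mice went into 1 pool, and the sorted nuclei of each pool were run on 2 Chromium lanes. Each condition therefore has 1 pool, the 2 lanes of a pool are technical runs, and no test between saline and risperidone could be made.

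Adrenergic receptors respond to noradrenaline, which noradrenergic axons release in the cortex, and to adrenaline, and histamine receptors respond to histamine from hypothalamic axons. The alpha-1 receptors (Adra1a, Adra1b, Adra1d) and the H1 receptor (Hrh1) couple to Gq and raise intracellular calcium through phospholipase C. The alpha-2 receptors (Adra2a, Adra2c) and the H3 receptor (Hrh3) couple to Gi/o and are known as autoreceptors of amine release, and the H2 receptor (Hrh2) couples to Gs and raises cAMP. Block of alpha-1 and H1 receptors is a known cause of the hypotension and sedation seen with many antipsychotics.

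Levels are given as CPM, the unique molecular identifiers (UMIs) of a gene scaled to the same UMI total in every group of nuclei. The lanes held between 119736937 and 203675013 UMIs, and between 23283 and 29981 nuclei per lane passed the filters. The median nucleus had 3297 or 4049 UMIs in a saline lane against 5648 or 7766 in a risperidone lane, and nuclei of few UMIs were listed for the risperidone lanes alone, with a lowest value of 500 there against 1364 and 1630 for saline. Nuclei were given a class from the UMIs of marker genes, and class names end in "-like" because they rest on these markers alone. In glutamatergic-like nuclei the glutamatergic markers summed to between 1100 and 1171 CPM and the GABAergic markers to between 16.3 and 28.3 CPM. The level of these GABAergic markers in glutamatergic-like nuclei, as a percentage of their level over the whole lane, was 18.0% or more in each saline lane and 12.8% or less in each risperidone lane. A percentage of this kind, taken for each class and lane, is used below as an estimate of RNA from other cells. For classes that are not glutamatergic it was taken from the glutamatergic markers. Nuclei with markers of 2 broad classes had been left out first, and whether the estimate is too low or too high was not tested. In glutamatergic-like nuclei it was higher in the saline pool. Ratios between the pools are given as counted, and the plot of ratios by class shows beside them the values without the UMIs this estimate accounts for.

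The members lie on 7 autosomes, as annotated on GRCm38. Adra1a (ENSMUSG00000045875) spans chr14:66635251-66771168 on the plus strand, Adra1b (ENSMUSG00000050541) spans chr11:43774606-43901210 on the minus strand and Adra1d (ENSMUSG00000027335) spans chr2:131545850-131562283 on the minus strand. The alpha-2 genes are short and without introns in the annotation, with Adra2a (ENSMUSG00000033717) at chr19:54044151-54048982 and Adra2c (ENSMUSG00000045318) at chr5:35278319-35281763, both on the plus strand. Of the histamine receptor genes, Hrh1 (ENSMUSG00000053004) spans chr6:114397936-114483296 and Hrh2 (ENSMUSG00000034987) spans chr13:54192129-54236180 on the plus strand, and Hrh3 (ENSMUSG00000039059) spans chr2:180099465-180104488 on the minus strand. Intronic reads were counted, so a long gene can gather more UMIs than a short one. Antisense genes overlap Adra1d (Gm14285), Hrh2 (Gm16578) and Hrh3 (Gm17180). They held 426, 54 and 14 UMIs over all lanes, against 2437, 21127 and 4022 UMIs of the receptors.

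Over all nuclei, Adra1a was the member with most UMIs. The saline lanes had 75.5 and 75.2 CPM of it, against 65.7 and 66.4 CPM with risperidone. Hrh1 followed in the saline lanes at 42.3 and 41.4 CPM, and was at 31.5 and 31.4 CPM in risperidone. Both genes were lower in both risperidone lanes than in either saline lane. Hrh2 was at 31.7 and 31.9 CPM in saline and 33.5 and 34.2 CPM in risperidone, where it lay above Hrh1. Adra1b was at 27.6 and 27.2 against 23.9 and 23.5 CPM. Hrh3 was at 7.28 and 7.32 CPM in saline and 5.87 and 5.28 CPM in risperidone, and Adra1d was at 4.33 and 3.99 against 3.75 and 3.41 CPM. The alpha-2 genes were sparse, with Adra2a between 0.41 and 0.71 CPM and Adra2c between 0.39 and 0.63 CPM in the 4 lanes.

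Per kilobase of gene the order was another. Hrh3 had the highest mean level of the 8 members over all nuclei, 1.28 CPM per kb, followed by Hrh2 at 0.745, Adra1a at 0.520 and Hrh1 at 0.429 CPM per kb. Adra1d, Adra1b, Adra2c and Adra2a were at 0.236, 0.202, 0.139 and 0.117 CPM per kb. The length used is the whole gene with introns. Whether UMIs rise in proportion to this length was not tested, so the order depends on that choice.

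**Figure D1:**
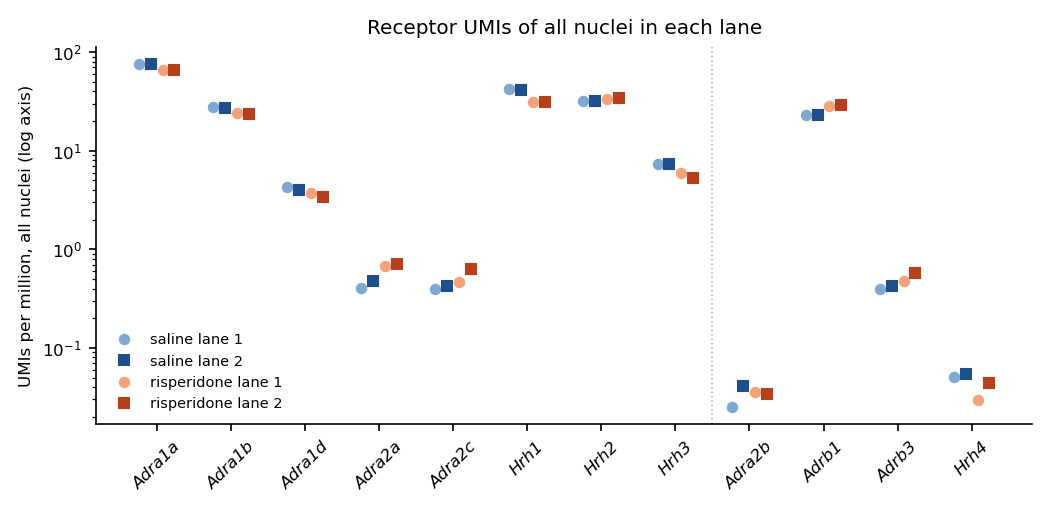
CPM of all nuclei in each of the 4 lanes, on a log axis, for the 8 members (left of the dotted line) and 4 other receptors of the same families; blue marks are the saline lanes and orange marks the risperidone lanes. For Adra1a, Adra1b, Adra1d, Hrh1 and Hrh3 both risperidone lanes lie below both saline lanes, and Adra2a, Adra2b, Adra2c, Adrb3 and Hrh4 lie under 1 CPM in every lane.

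Adra1a had its highest levels in interneurons. The highest among the 17 classes with at least 100 nuclei in each pool was that of Lamp5-like interneurons, the class that holds neurogliaform cells, with 894 and 973 CPM under saline against 881 and 922 CPM under risperidone. PV-like interneurons came second at 311, 314, 306 and 312 CPM, and Vip-like interneurons next at 301, 176, 209 and 292 CPM, in the same order of lanes. The steps from Lamp5-like to PV-like, from PV-like to Vip-like and from Vip-like to astrocyte-like nuclei held in the lanes of both pools. Astrocyte-like nuclei (124 to 144 CPM), oligodendrocyte precursor-like nuclei (94.9 to 155 CPM), layer 5 ET-like neurons (109 to 128 CPM), fibroblast-like nuclei (72.8 to 135 CPM) and Sst-like interneurons (90.0 to 119 CPM) followed. No neighbours among them were set apart. Astrocyte-like nuclei, the first of them, lay above Sst-like interneurons, the last, in every lane. Sst-like interneurons in turn lay above near-projecting-like neurons (31.6 to 42.8 CPM) in the lanes of both pools. Glutamatergic-like nuclei as a whole were at 42.7 and 41.7 CPM in saline and 31.2 and 29.4 CPM in risperidone. The small class of interneuron-like nuclei with Nos1 and Tacr1, with 46 saline and 48 risperidone nuclei, held 166 and 159 UMIs of Adra1a, which is 689 CPM in saline (exact Poisson interval, 588 to 802) and 482 CPM in risperidone (410 to 563).

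In UMIs, Adra1a was divided between the neuron classes. Of its UMIs in nuclei with a class, glutamatergic-like nuclei held 52.2% in saline and 45.7% in risperidone, and GABAergic-like nuclei held 40.6% and 49.1%, although there were 28841 and 28214 glutamatergic-like but only 3113 and 3569 GABAergic-like nuclei.

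Adra1b was highest in Vip-like interneurons, which carry vasoactive intestinal peptide. The saline lanes had 283 and 251 CPM there, against 336 and 303 CPM with risperidone, from 121 and 367 UMIs. Lamp5-like interneurons were second at 97.2, 100.4, 87.4 and 106 CPM, and deep-layer IT-like neurons next at 41.8, 52.1, 38.2 and 30.5 CPM. These first 2 steps held in both pools, and deep-layer IT-like neurons and layer 6 CT-like neurons (25.7 to 33.2 CPM) could not be told apart. PV-like interneurons were at 11.4 to 23.5 CPM. Over the 34 points given by 17 classes in 2 pools, the log2 levels of Adra1a and Adra1b had a Pearson r of 0.67. These points share libraries and differ in depth, so the value is a description.

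Adra1d was highest in layer 4/5 IT-like neurons at 12.2 and 11.2 CPM in saline and 10.3 and 8.78 CPM in risperidone, and deep-layer IT-like neurons (5.84 to 9.51 CPM) could not be set apart from them. Glutamatergic-like nuclei held 95.6% of its classified UMIs in saline and 97.6% in risperidone, against 85.6% and 88.3% of the UMIs of all genes. Within them the level varied, and layer 6 CT-like neurons, at 0.541 to 0.905 CPM, were no higher than PV-like interneurons at 0.693 to 5.01 CPM. In the 4 interneuron classes Adra1d had between 0 and 9 UMIs per pool, and oligodendrocyte precursor-like nuclei held none.

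Adra2a and Adra2c were too sparse for an order of classes. Adra2a had 119 UMIs in the saline pool and 258 in the risperidone pool over all nuclei, and Adra2c had 110 and 207. Glutamatergic-like nuclei held 81.0% and 85.9% of the classified UMIs of Adra2a and 80.9% and 87.9% of those of Adra2c. Their share of the UMIs of all genes was no lower, at 85.6% and 88.3%. No class of at least 100 nuclei per pool lay above its neighbour in the lanes of both pools for either gene. Adra2a was not detected in the 7 saline and 132 risperidone microglia-like nuclei, where 0 counts allow up to 258 and 25.1 CPM, so an expression there was not detectable at this depth.

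Hrh1 was highest in astrocyte-like nuclei, with 135 and 148 CPM under saline against 147 and 126 CPM under risperidone. Layer 6b-like neurons were second at 118, 118, 89.8 and 109 CPM, and oligodendrocyte precursor-like nuclei next at 71.6, 71.7, 55.7 and 53.0 CPM. These steps and the one down to layer 4/5 IT-like neurons, at 63.1, 58.0, 35.9 and 41.7 CPM, held in both pools. PV-like interneurons were near the bottom with 18 UMIs in each pool, at 10.0 and 3.81 CPM in saline and 3.51 and 3.81 CPM in risperidone. Glutamatergic-like nuclei were at 44.3 and 41.9 against 32.2 and 31.9 CPM, and they held 86.5% and 88.2% of its classified UMIs, close to their 85.6% and 88.3% of the UMIs of all genes.

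Hrh2 was higher in the neuron classes than in the glial ones. Vip-like interneurons had the highest level at 127, 94.9, 92.3 and 105 CPM, and layer 2/3 IT-like neurons were second at 57.5 and 56.7 CPM in saline and 57.1 and 56.4 CPM in risperidone. Sst-like (38.6 to 55.0 CPM), Lamp5-like (29.8 to 60.3 CPM) and claustrum type neurons (33.7 to 47.6 CPM) followed and could not be told apart. Layer 6 CT-like neurons were low at 9.63 to 11.4 CPM, and astrocyte-like and oligodendrocyte-like nuclei were at 1.76 to 4.69 CPM. No UMI of Hrh2 remained in astrocyte-like and oligodendrocyte-like nuclei after the estimate of RNA from other cells was taken out.

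Hrh3 had few UMIs in every class, although its level per kilobase was the highest of the members over all nuclei. Lamp5-like interneurons were at 21.9 and 13.3 CPM in saline and 16.3 and 8.75 CPM in risperidone, and claustrum type neurons (9.22 to 16.8 CPM), deep-layer IT-like neurons (7.83 to 15.0 CPM) and PV-like interneurons (8.31 to 13.4 CPM) were close to them. Across the 34 points, the log2 level of Hrh3 ran closest to that of Hrh2 among the members, with r = 0.78.

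**Figure D2:**
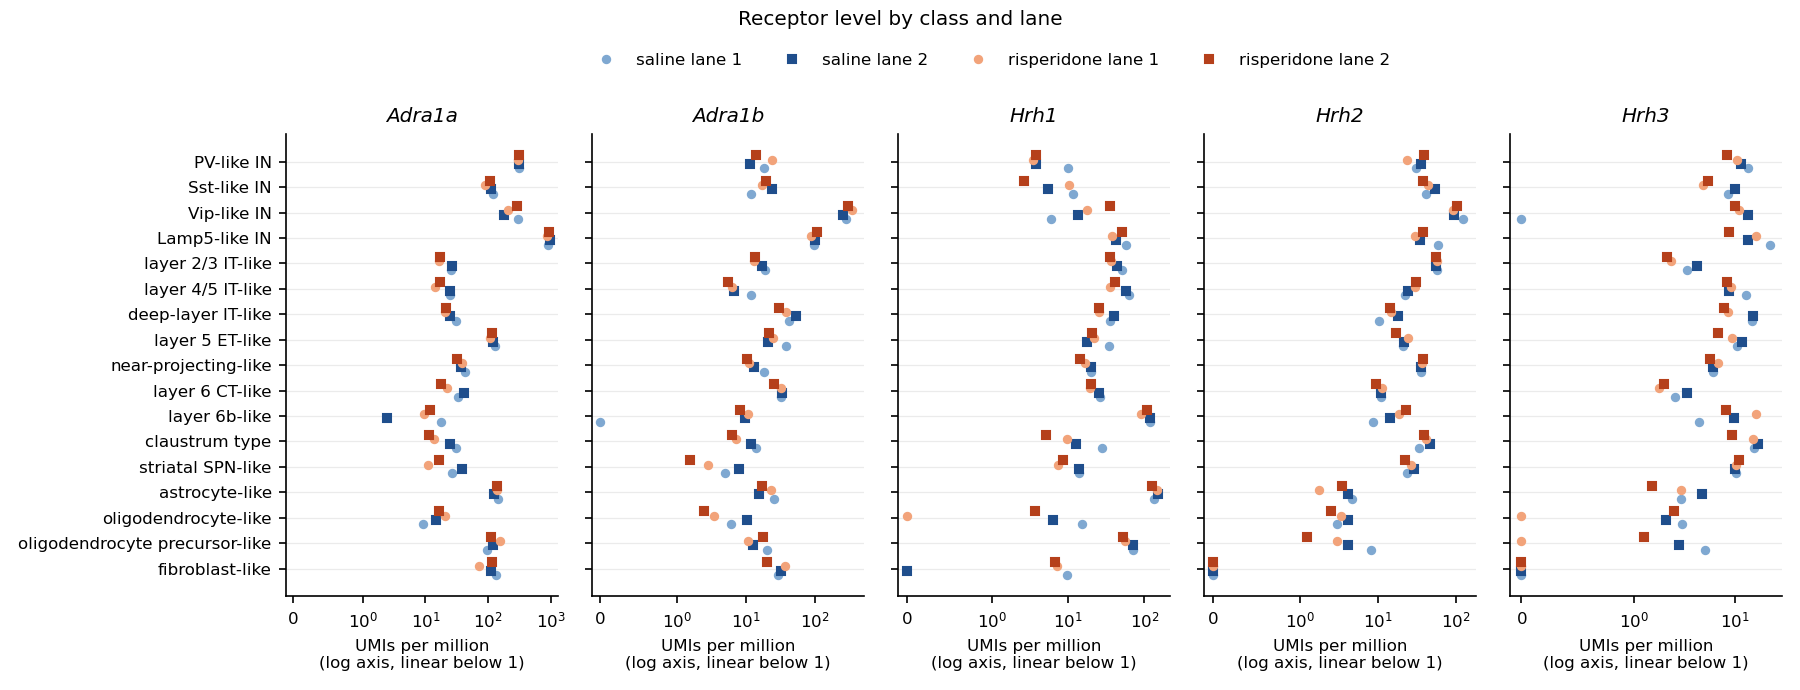
CPM of Adra1a, Adra1b, Hrh1, Hrh2 and Hrh3 (x axis, log scale and linear below 1) in the 17 classes with at least 100 nuclei in each pool (y axis), with 1 mark for each of the 4 lanes. Adra1a stands out in Lamp5-like interneurons (881 to 973 CPM), Adra1b in Vip-like interneurons (251 to 336 CPM) and Hrh1 in astrocyte-like nuclei (126 to 148 CPM), whereas Hrh3 reaches 21.9 CPM at most in any of them.

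Counted per nucleus, the same classes led. To compare pools of different depth, each nucleus was thinned to 1500 UMIs and shallower nuclei were left out. Intervals for shares are exact Clopper-Pearson intervals at 95% confidence, and all intervals given here cover counting error only. After thinning, 67.0% of 400 Lamp5-like nuclei of the saline pool had a UMI of Adra1a (62.2 to 71.6%), and 69.0% of 646 in the risperidone pool (65.3 to 72.6%). In PV-like interneurons the shares were 37.2% (33.1 to 41.4%) and 36.1% (32.5 to 39.8%), and the pools' intervals overlapped widely in both classes. As deposited, without thinning, the Lamp5-like shares were 86.8% and 92.5%. Oligodendrocyte-like nuclei, which are taken here as a class that should hold little of these receptors, had a thinned share of 2.12% (0.857 to 4.32%) in saline and 1.45% (0.398 to 3.68%) in risperidone. Their median depth was 1674 and 2130 UMIs in saline and 1063 and 1366 UMIs in risperidone, so thinning left out 35 of 365 and 657 of 932 of them, against 1 of 401 and 7 of 653 Lamp5-like nuclei, whose medians were 3636, 4530, 4232 and 5866 UMIs.

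For Adra1b, the thinned share of Vip-like nuclei with a UMI was 30.4% (21.7 to 40.3%) in saline and 33.3% (27.6 to 39.4%) in risperidone, against 1.21% and 0% of oligodendrocyte-like nuclei, the latter allowing up to 1.09%. For Hrh1, it was 17.3% (15.4 to 19.3%) and 18.2% (16.2 to 20.4%) of astrocyte-like nuclei, against 1.52% and 0.727% of oligodendrocyte-like nuclei. Hrh2 was found in 14.7% and 13.8% of Vip-like and in 8.45% and 8.14% of layer 2/3 IT-like nuclei. In glutamatergic-like nuclei the thinned share for Adra1a was 5.43% (5.17 to 5.69%) in saline and 4.06% (3.83 to 4.30%) in risperidone, and that for Hrh1 was 6.26% (5.98 to 6.54%) and 4.57% (4.33 to 4.82%). Without thinning the order of the pools was the opposite, at 14.5% and 15.7% for Adra1a and 16.8% and 19.3% for Hrh1. The median glutamatergic-like nucleus held 4094 or 4803 UMIs in a saline lane against 6348 or 8627 in a risperidone lane.

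**Figure D3:**
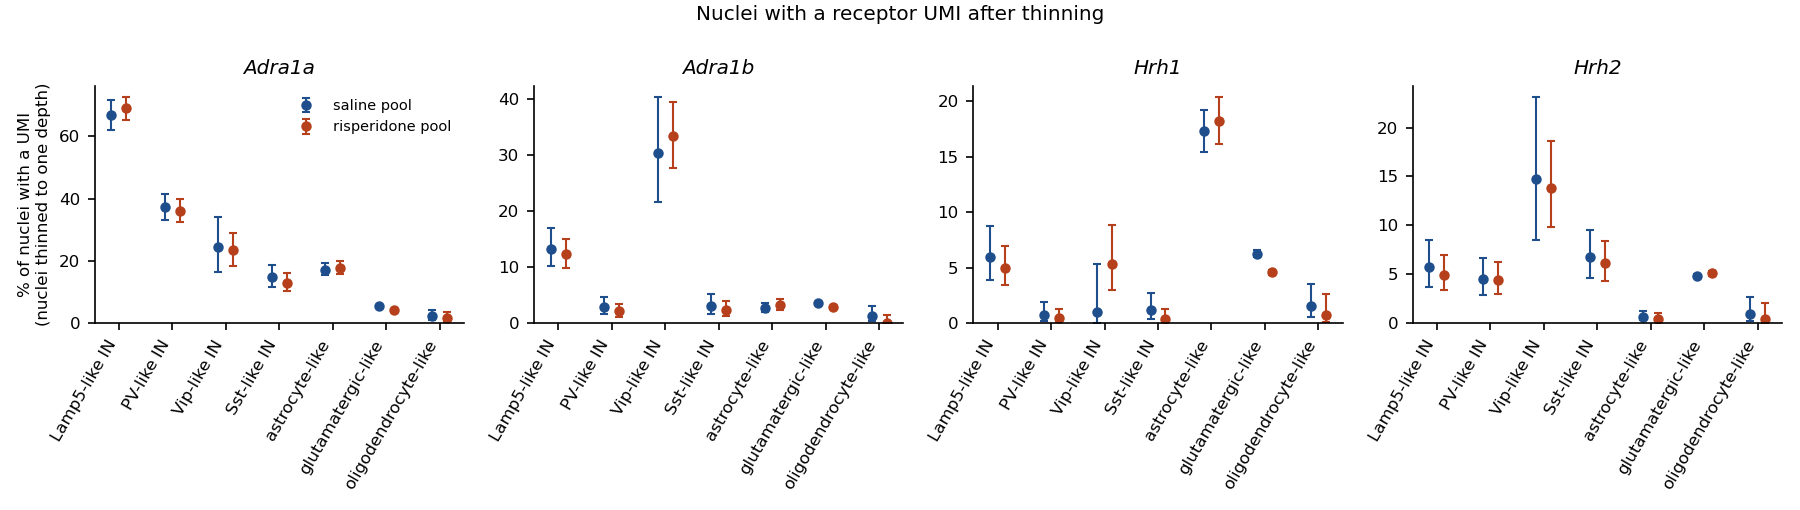
Percentage of nuclei with at least 1 UMI of Adra1a, Adra1b, Hrh1 or Hrh2 (y axis, from 0) in 7 classes, after each nucleus was thinned to 1500 UMIs; points are pools and bars are exact 95% binomial intervals for counting error. In Lamp5-like interneurons Adra1a is found in 67.0% and 69.0% of nuclei, and in glutamatergic-like nuclei the risperidone pool lies lower for Adra1a and Hrh1 and not for Hrh2.

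The genes whose level over the 34 points was most like that of a member were named by a fixed rule, the 3 highest Pearson correlations among 10253 genes. For Adra1a these were Fgf13, an intracellular fibroblast growth factor homologue that acts on sodium channels (r = 0.86), the receptor tyrosine kinase Alk (0.85) and the exchange factor Arhgef6 (0.84), all highest in Lamp5-like interneurons. For Adra1b they were Igf1, Tspan18 and Zbtb16 (0.76, 0.75 and 0.75), all highest in Vip-like interneurons. Adra1d ran with the cadherin Cdh12 (0.82), Glt8d2 (0.79) and Fbxo34 (0.79), which peaked like it in layer 4/5 IT-like neurons. Among the genes most like Hrh1 were the proteoglycan gene Ncan, or neurocan (0.80), and Cables1 (0.79), both highest in astrocyte-like nuclei. Hrh2 ran with the N-type calcium channel gene Cacna1b (0.89), the Notch ligand gene Jag2 (0.89) and the zinc finger gene Zfat (0.88). Hrh3 was most like Htr2a, the serotonin 2A receptor (0.83), then Cacna1b (0.82) and Jag2 (0.82). Correlations of sparse genes depend on depth, and no test was attached to them.

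The comparison of the pools asks whether these receptors differ in the adult cortex long after the drug has been stopped. Ratios are log2 of risperidone over saline, scaled by edgeR's TMM factors of the class, and their exact intervals cover counting error only. A gene was counted lower or higher where the absolute log2 ratio reached 0.5, the mean reached 1 CPM and the lanes of the pools did not overlap. In glutamatergic-like nuclei 6 of the 8 members reached 1 CPM, and 3 of them, Adra1a, Hrh1 and Hrh3, were counted lower and 0 higher, against 9.23% of 13786 genes counted lower and 11.0% counted higher. Over all nuclei 1 of 6 members, Hrh1, was counted lower and 0 higher, against 7.60% and 10.4% of all genes. That call was lost with plain CPM (-0.41) and with a common UMI floor. The median log2 ratio of the 6 members in glutamatergic-like nuclei was -0.47, beside -0.00 for all genes.

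In glutamatergic-like nuclei the log2 ratio of Adra1a was -0.58 (-0.63 to -0.53), from 6178 saline and 7007 risperidone UMIs, and pairing each risperidone lane with each saline lane gave between -0.63 and -0.53. The ratio of Hrh1 was -0.53 (-0.57 to -0.48), with lane pairs between -0.57 and -0.49, and that of Hrh3 was -0.58 (-0.70 to -0.46), from 1117 and 1269 UMIs at 7.58, 7.64, 5.77 and 5.21 CPM. Adra1b, at 26.9, 25.3, 21.6 and 20.2 CPM, had a ratio of -0.42 (-0.48 to -0.36), and Adra1d, at 5.11, 4.79, 4.75 and 4.28 CPM, one of -0.23 (-0.37 to -0.10), both short of the size. Hrh2, at 0.04 (-0.01 to 0.09), was the only one of the 6 with a ratio not below 0. With plain CPM in place of TMM factors, the ratios of Adra1a, Hrh1 and Hrh3 were -0.48, -0.43 and -0.48, none of which reached 0.5, while the median of all genes moved to 0.10 and the share of higher among all genes counted moved from 54.4% to 72.0%. Such a change of scaling shifts the ratio of every gene of a class by the same amount. Without saline lane 1, Hrh1 fell just short of the size and 2 members were counted lower. With the estimated RNA of other cells taken out, the ratios were -0.54, -0.53 and -0.60. With the subclasses weighted equally, they were -0.43, -0.46 and -0.39, so that none of the 3 was counted lower. Equal weights count small subclasses of high level as much as the 9771 layer 2/3 IT-like nuclei. Among these are the 603 layer 5 ET-like nuclei, highest in Adra1a, and the 277 layer 6b-like nuclei, highest in Hrh1. Nuclei without a subclass do not enter. The makeup of the class differed between the pools, with 2361 saline but 1128 risperidone near-projecting-like nuclei. The part of this makeup in the ratios was not tested.

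The lower values of Adra1a were spread over subclasses of glutamatergic-like neurons. The ratio was below 0 in 7 of 8 subclasses, with the interval below 0 in 6 of them. In layer 6 CT-like neurons, which project to the thalamus, Adra1a was at 32.8 and 41.5 CPM in saline and 21.9 and 18.0 CPM in risperidone, a ratio of -1.03 (-1.23 to -0.83) that was -1.06 without the RNA of other cells. In layer 2/3 IT-like neurons it was at 25.2 and 26.2 against 16.6 and 16.9 CPM, a ratio of -0.72 (-0.87 to -0.56) that became -0.39 without the RNA of other cells. Layer 4/5 IT-like neurons likewise went from -0.70 (-0.99 to -0.41) to -0.27. Layer 5 ET-like neurons, the subclass with the highest level, had a ratio of -0.19 (-0.43 to 0.06). In striatal spiny projection-like nuclei, of which there were 1308 in saline and 425 in risperidone, the ratio was -1.26 (-1.85 to -0.71) from 152 and 33 UMIs, and -1.68 without the RNA of other cells, which was estimated at 39.9% and 36.9% in the saline lanes against 20.3% and 18.0%. With that RNA taken out, Adra1a was at 0 and 17.5 CPM in saline and 0 and 5.33 CPM in risperidone, so the lanes of the pools overlapped.

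Hrh1 was below 0 in all 8 of these subclasses, with the interval below 0 in 6. Without the RNA of other cells it was below 0 in 7. Near-projecting-like neurons, among the 6, were then at 14.6 and 14.9 CPM in saline and 14.6 and 12.3 CPM in risperidone. In layer 4/5 IT-like neurons its ratio was -0.69 (-0.87 to -0.50) and -0.76 without the RNA of other cells, and in deep-layer IT-like neurons, at 35.3 and 39.9 against 25.3 CPM in each risperidone lane, it was -0.68 (-0.92 to -0.44) and -0.70. Layer 6b-like neurons, with the highest level among neurons, had a ratio of -0.22 (-0.62 to 0.19). Adra1b was also below 0 in 7 of 8 subclasses with 6 intervals below 0, led in level by deep-layer IT-like neurons at -0.58 (-0.79 to -0.37) and -0.65 without the RNA of other cells. Hrh3 had its interval below 0 in 3 subclasses, and in deep-layer IT-like neurons it was at 14.6 and 15.0 CPM in saline and 8.50 and 7.83 CPM in risperidone, a ratio of -0.96 (-1.37 to -0.56) that was -1.06 without it. Hrh2 was at 22.7 and 24.9 against 29.9 and 30.8 CPM in layer 4/5 IT-like neurons, a ratio of 0.27 (0.02 to 0.52), and at -0.10 (-0.20 to -0.01) in layer 2/3 IT-like neurons. Its ratio was below 0 in 6 of 8 subclasses, with the interval below 0 in 1 and above 0 in 1. It was also below 0 in all 4 interneuron classes, with the interval below 0 in 1 of them.

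For Adra1a, Adra1b and Hrh1, the ratio in the class of highest level was nearer to 0 than in glutamatergic-like nuclei or on the other side of 0. Adra1a in Lamp5-like interneurons had a ratio of -0.12 (-0.21 to -0.03) from 1602 and 2987 UMIs, and -0.26 without the RNA of other cells. In PV-like interneurons it was -0.11 (-0.23 to 0.01) from 867 and 1511 UMIs, and over all GABAergic-like nuclei it was -0.06 with TMM factors and 0.04 with plain CPM, so that its sign depended on the scaling. Hrh1 in astrocyte-like nuclei had a ratio of -0.15 (-0.33 to 0.03), and Adra1a in the same nuclei, at 144, 124, 138 and 138 CPM, had one of -0.02 (-0.20 to 0.16). Adra1b in Vip-like interneurons had a ratio of 0.33 (0.03 to 0.64), and 0.24 without the RNA of other cells. In the nuclei called female alone it was 0.90 (0.34 to 1.51), from 30 and 190 UMIs, and in those called male alone 0.89 (0.19 to 1.64), from 22 and 81 UMIs. Both values lie above that of the whole class, which also holds the nuclei without a sex call. In their classes of highest level, Hrh3 had a ratio of -0.56 (-1.28 to 0.19), in Lamp5-like interneurons, and Adra1d one of -0.37 (-0.77 to 0.03), in layer 4/5 IT-like neurons. The intervals of Adra1a in Lamp5-like and glutamatergic-like nuclei do not overlap, but whether the conditions differ between classes was not tested, since there is 1 pool each. The share of all genes without such an overlap is not given here.

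By the rule of size, 3 of 6 members were counted lower and 0 higher in PV-like interneurons, against 12.6% lower and 16.3% higher among all genes. The 3 were Adra1d, Hrh1 and Hrh3, which had only 9 and 5, 18 and 18, and 34 and 45 UMIs in the pools. Hrh1 was no longer counted there without the RNA of other cells (-0.47), nor Hrh3 with plain CPM (-0.41). In Sst-like interneurons 1 of 6, Hrh3, was counted lower and 0 higher, against 11.2% and 15.2%, from 21 and 19 UMIs. In Lamp5-like interneurons 0 of 6 were counted lower and 0 higher, against 11.1% and 15.6%. In astrocyte-like nuclei 2 of 5, Hrh2 and Hrh3, were counted lower and 0 higher, against 15.6% and 16.3%, from 17 and 10 and from 15 and 8 UMIs, which are levels where the estimated RNA of other cells takes out all of Hrh2.

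A member was counted higher in 4 of the 17 classes, all from few UMIs. In Vip-like interneurons 1 of 6, Hrh1, was counted higher and 0 lower, against 19.3% higher and 8.40% lower among all genes, from 5 UMIs in the saline pool and 33 in the risperidone pool and a ratio of 1.45 (0.09 to 3.17). In layer 6b-like neurons 2 of 7, Adra2a and Hrh2, were counted higher and 0 lower, against 18.4% and 10.7%. Hrh2 had 8 and 34 UMIs there and a ratio of 0.79 (-0.34 to 2.12), and Adra2a had 0 and 4 UMIs. In claustrum type neurons 1 of 7, Adra2a, was counted higher from 1 and 11 UMIs, with a ratio of 2.49 (-0.29 to 7.92), and 3 were counted lower, against 15.7% higher and 11.0% lower. In both of these classes Adra2a passed the minimum only through the risperidone lanes. The 3 lower members were Adra1a, Adra1b and Hrh1, with ratios of -1.17 (-1.81 to -0.53), -0.97 (-1.89 to -0.05) and -1.43 (-2.25 to -0.63), from 47 and 41, 22 and 22, and 33 and 24 UMIs. In oligodendrocyte-like nuclei 1 of 6, Adra1a, was counted higher, from 10 and 25 UMIs, and Adra1b and Hrh1 were counted lower, from 7 and 4 and from 8 and 3 UMIs, against 20.1% and 15.6%. In the oligodendrocyte-like nuclei called female alone the ratio of Hrh1 was 0.17. The higher calls of Adra2a were lost without risperidone lane 1 in layer 6b-like and without risperidone lane 2 in claustrum type neurons, and that of Adra1a in oligodendrocyte-like nuclei was lost without lane 1 of either pool.

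**Figure D4:**
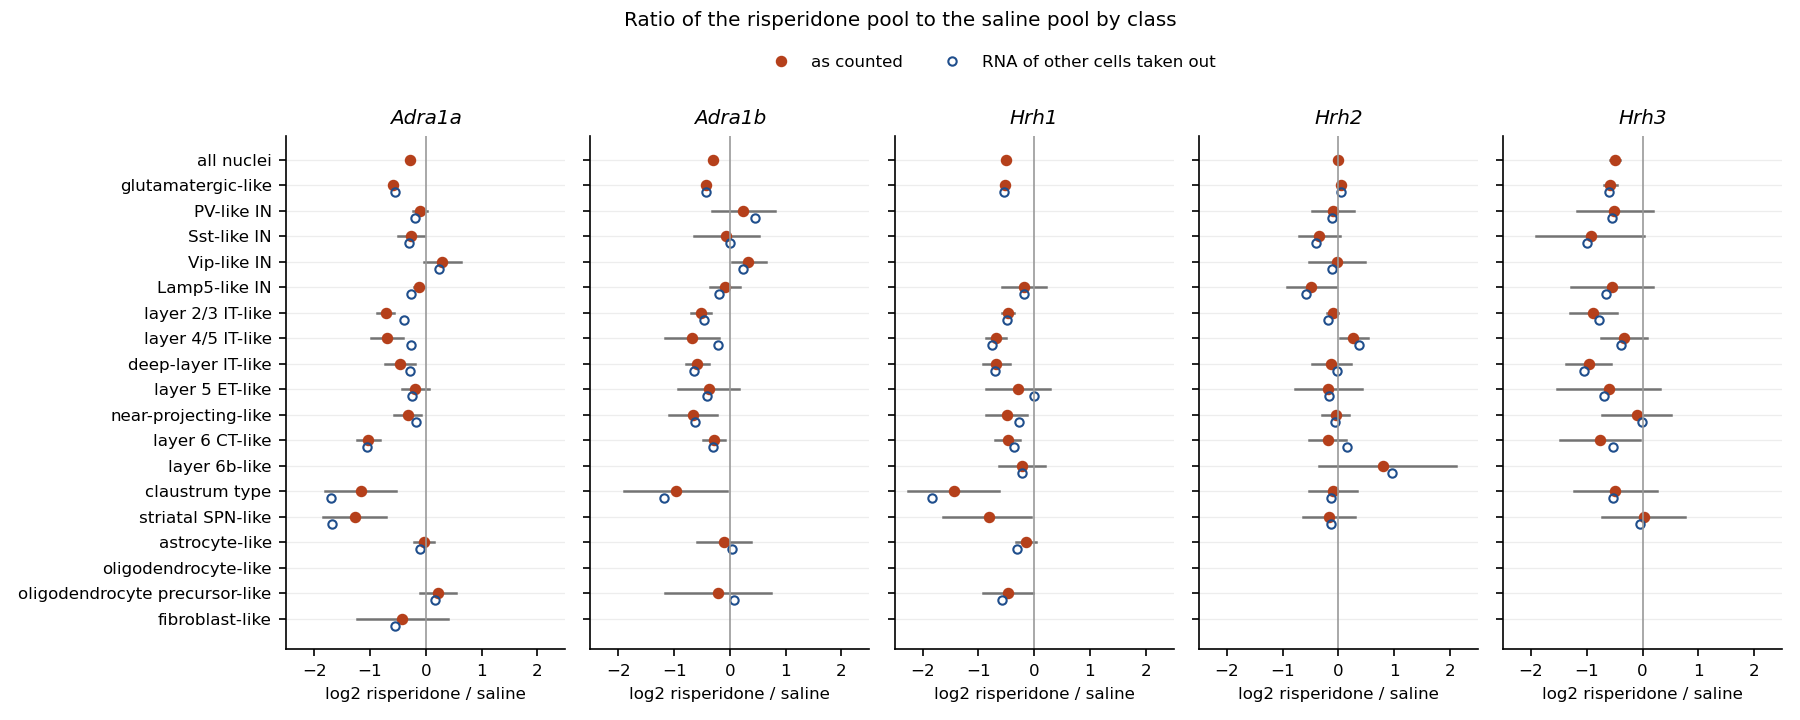
Log2 ratio of the risperidone pool to the saline pool (x axis) of Adra1a, Adra1b, Hrh1, Hrh2 and Hrh3 in all nuclei, glutamatergic-like nuclei and 17 classes (y axis); filled points with grey exact 95% intervals for counting error are the values as counted, open points those with the estimated RNA of other cells taken out, and classes with under 40 UMIs of a gene are left blank. In glutamatergic-like nuclei Adra1a, Hrh1 and Hrh3 lie at -0.58, -0.53 and -0.58 and Hrh2 at 0.04, and Adra1a lies at -0.12 in Lamp5-like interneurons.

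Nuclei could be called female by Xist or male by 4 Y-linked genes, which splits part of each pool by sex but adds no pool. The share called female was 37.7% and 39.1% in the saline lanes but 49.8% and 48.8% in the risperidone lanes, while between 17.9% and 19.5% of a lane were called male. The remaining nuclei, a larger part of the saline lanes, had no sex call. The part of these differences in the ratios below, which are as counted, was not tested. In glutamatergic-like nuclei the ratio of Adra1a was -0.77 (-0.84 to -0.69) in female and -0.48 (-0.59 to -0.37) in male nuclei, and that of Hrh1 was -0.64 (-0.71 to -0.57) and -0.33 (-0.44 to -0.22). Hrh3 had the opposite order, at -0.35 (-0.53 to -0.18) in female and -0.93 (-1.20 to -0.66) in male nuclei. Hrh2 was at -0.09 (-0.17 to -0.01) and 0.22 (0.11 to 0.33). In Lamp5-like interneurons Adra1a was at 0.27 (0.13 to 0.42) in female and -0.27 (-0.44 to -0.11) in male nuclei. The pairs of intervals do not overlap, and whether the sexes differ in this was not tested, since each sex is part of 1 pool per condition. In glutamatergic-like nuclei they did not overlap for Adra1b (-0.48 in female, -0.24 in male) or Adra1d (-0.45 and 0.09) either. The share of all genes whose intervals do not overlap is not given here, so this is no result about these receptors.

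The alpha-2 genes lay under the minimum of 1 CPM over all nuclei and in glutamatergic-like nuclei. Over all nuclei Adra2a had a ratio of 0.54 (0.22 to 0.87), at 0.41 and 0.47 CPM in saline and 0.68 and 0.71 CPM in risperidone, so both risperidone lanes were above both saline lanes. In glutamatergic-like nuclei it was 0.63 (0.15 to 1.13), from 51 and 134 UMIs. Adra2c had ratios of 0.34 (-0.00 to 0.69) and 0.40 (-0.07 to 0.88) in the same nuclei.

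Among other receptors of these families, Adrb1, the beta-1 receptor, reached 1 CPM over all nuclei. It was at 23.2 and 23.1 CPM in saline and 28.2 and 28.8 CPM in risperidone, and per kilobase, at a mean of 2.36 CPM per kb, it lay above all 8 members. Its ratio in glutamatergic-like nuclei was 0.20 (0.14 to 0.26), above 0 but short of the size, at 25.3, 26.7, 31.5 and 32.6 CPM. Adrb1 was counted higher in Vip-like (1.19) and Lamp5-like interneurons (0.62), against 19.3% and 15.6% of all genes. In Vip-like interneurons it was at 0 and 20.3 CPM in saline and 28.6 and 28.3 CPM in risperidone. The ratio was above 0 in 14 of 17 classes, with the interval above 0 only in layer 2/3 IT-like neurons. Adra2b, Adrb3 and Hrh4 were at 0.57 CPM or less in every lane.

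Among 63 genes, made up of 58 genes of the pathways of these receptors and the 5 other receptors of the families, 52 reached 1 CPM in glutamatergic-like nuclei, and 2 were counted higher and 7 lower. In PV-like interneurons 3 of 52 were counted higher and 6 lower, and in Sst-like interneurons 1 of 49 higher and 8 lower. The shares of all genes counted in these classes are those given above. The median log2 ratio of the genes of the list was -0.15, -0.14 and -0.22, beside -0.00, 0.02 and 0.02 for all genes.

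In the Gq arm, which alpha-1 and H1 receptors use, 1 of 11 genes was counted higher and 2 lower in glutamatergic-like nuclei. Gna11, a Gq-family alpha subunit, was at 11.2 and 11.6 CPM in saline and 8.40 and 8.50 CPM in risperidone, a ratio of -0.53 (-0.63 to -0.44). With plain CPM its ratio was -0.43, short of the size. It was counted lower in PV-like and Sst-like interneurons too, at -1.05 and -0.92, from 42 and 38 and from 33 and 30 UMIs. The inositol trisphosphate receptor gene Itpr2 had a ratio of -0.68 (-0.77 to -0.60), which became -0.28 without the RNA of other cells. Rgs2, which shortens Gq signals, was at 2.98, 2.52, 4.29 and 4.17 CPM, a ratio of 0.53 (0.37 to 0.71). In PV-like interneurons Plcb2, a phospholipase C gene, had 2 and 11 UMIs and a ratio of 1.55 (-0.65 to 4.77), and passed the minimum only through the risperidone lanes.

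In the Gi/o arm, 2 of 13 genes were counted lower and 0 higher in glutamatergic-like nuclei. Gnaz was at 54.2, 54.4, 39.2 and 40.4 CPM with a ratio of -0.55 (-0.59 to -0.50). Rgs14, at 6.46, 6.35, 4.55 and 4.79 CPM, also had one of -0.55 (-0.68 to -0.42). With plain CPM both were at -0.45, short of the size. In PV-like interneurons Gng2, a gamma subunit gene, was counted lower (-0.59), and in Sst-like interneurons Gnaz (-0.69) and Rgs12 (-0.88) were. Gng2 was no longer counted with plain CPM, nor Gnaz in Sst-like interneurons without the RNA of other cells. In the Gs and cAMP arm, 1 of 14 genes, the adenylyl cyclase gene Adcy5, was counted lower in glutamatergic-like nuclei, at 71.1 and 66.9 against 47.3 and 45.4 CPM and a ratio of -0.67 (-0.71 to -0.63). In PV-like interneurons Adcy2, Adcy5 and the cAMP phosphodiesterase gene Pde4b were counted lower (-1.01, -0.58 and -1.07). Without the RNA of other cells Adcy2 and Adcy5 were no longer counted there, nor was Adcy5 with plain CPM. Pde4b was at 242 and 243 CPM in saline and 129 and 120 CPM in risperidone there. In Sst-like interneurons it was at 309 and 310 against 215 and 199 CPM, a ratio of -0.66, and was counted lower beside Prkaca at -0.54. Pde4b was no longer counted there without the RNA of other cells (-0.48), nor Prkaca with plain CPM (-0.47).

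Of the 6 genes for receptor kinases and arrestins, which end the signal of an active receptor, Grk3 was counted lower in glutamatergic-like nuclei at 90.1, 87.4, 66.7 and 63.5 CPM (-0.55). With plain CPM its ratio was -0.45, short of the size. Grk6 was counted higher in PV-like interneurons at 0.72 (0.13 to 1.34), from 32 and 99 UMIs, and Grk2 and Arrb2 were counted lower in Sst-like interneurons (-0.67 and -0.88). Among genes of amine supply and clearance, the synthetic enzymes and the noradrenaline transporter were nearly absent, with between 8 and 35 UMIs of Dbh, Th, Slc6a2 or Hdc per lane. The cell bodies that make noradrenaline and histamine lie outside the cortex. The vesicular monoamine transporter gene Slc18a2 was counted higher in all 3 classes, but in glutamatergic-like and Sst-like nuclei it passed the minimum of 1 CPM only through the risperidone lanes. In glutamatergic-like nuclei it was at 0.916 and 0.851 CPM in saline and 3.11 and 2.82 CPM in risperidone, a ratio of 1.65 (1.37 to 1.93), and in PV-like and Sst-like interneurons it had 5 and 24 and 1 and 18 UMIs, with ratios of 1.35 (-0.06 to 3.10) and 3.38 (0.72 to 8.76). Slc29a4, a low-affinity monoamine transporter gene, had a ratio of -0.77 (-0.97 to -0.58) in glutamatergic-like nuclei, and Maob, with 4 and 2 UMIs, one of -1.79 (-5.25 to 1.02) in Sst-like interneurons, where it passed the minimum only through the saline lanes.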

How the data were processed

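Droplet single-nucleus RNA-seq of 1 saline and 1 risperidone pool of mouse hemicortices was used, each pool run on 2 lanes. The authors deposited filtered matrices of whole-number UMI counts per gene and nucleus, made with Cell Ranger 8.0.1 on mm10 with intronic reads counted. Nuclei with under 500 genes or over 5% mitochondrial UMIs were left out. Each remaining nucleus was given a class by a likelihood over marker genes, and nuclei with markers of 2 broad classes (19.0% to 23.1% per lane), where doublets are likeliest, were left out, as were those with no clear class. A class was given to 59.0% and 62.1% of the nuclei used in the saline lanes, against 73.6% and 75.1% in the risperidone lanes. Classes thus cover unlike parts of the 2 pools. Many glutamatergic-like and GABAergic-like nuclei could not be given a narrower class and count in the broad class only. Any 2 lanes shared between 160 and 221 barcodes. The members and lists were chosen with earlier results of these data known, and the thresholds of the class call were set after the data had been seen.

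Counts were summed per lane and class and scaled by the TMM factors of edgeR 4.0.16 in R 4.3.3. With 1 pool per condition no count model was fitted. Exact Poisson, conditional binomial and Clopper-Pearson intervals at 95% were computed with scipy 1.17.1 in Python 3.11.15, and a count of 0 was given the limit of 3 counts. Classes with under 100 nuclei in a pool were not compared between pools. Neighbouring classes were said to differ where the lanes of one lay above those of the other within each pool. RNA of other cells was estimated per lane from markers of other classes. Named genes were the 8 members, the pathway genes counted by the rule of size in glutamatergic-like, PV-like and Sst-like nuclei, and the 3 genes most like each member in level over 17 classes. Gene positions came from GENCODE on GRCm38, which matched 32235 of 32285 gene IDs. The scripts were tested on simulated data. Some genes that these rules name are not reported here.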

Additional observations from a re-analysis of the deposited data

Results flagged for a closer look

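In 3 cases all lane pairs of 1 class had risperidone above saline while those of other classes had it below, and none of these differences was tested. Adra1a in oligodendrocyte-like nuclei had a log2 ratio of 0.53 (-0.58 to 1.76) from 10 saline and 25 risperidone UMIs, opposite to -0.58 in glutamatergic-like nuclei, -0.72 in layer 2/3 IT-like, -0.70 in layer 4/5 IT-like, -1.03 in layer 6 CT-like, -1.17 in claustrum type and -1.26 in striatal spiny projection-like neurons. Hrh1 in Vip-like interneurons had a ratio of 1.45 (0.09 to 3.17) from 5 and 33 UMIs, opposite to -0.53 in glutamatergic-like nuclei, -0.91 in PV-like interneurons, -0.69 in layer 4/5 IT-like, -0.68 in deep-layer IT-like, -1.43 in claustrum type and -0.81 in striatal spiny projection-like neurons, and -2.20 in oligodendrocyte-like nuclei. Without the RNA of other cells, Hrh1 in striatal spiny projection-like neurons was at 0 and 0 CPM in saline and 1.33 and 3.52 CPM in risperidone, the other direction, and it was no longer counted in PV-like or oligodendrocyte-like nuclei. Hrh2 in layer 6b-like neurons had a ratio of 0.79 (-0.34 to 2.12) from 8 and 34 UMIs, opposite to -0.80 in astrocyte-like and -1.63 in oligodendrocyte precursor-like nuclei. In these last 2 classes at most 0.34 CPM of Hrh2 was left in any lane without the RNA of other cells.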

How the results depend on the processing

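No paired analysis was possible because the lanes are technical runs of 1 pool per condition and no result comes from a test. Of 669 alternative log2 ratios 63 moved beyond their counting interval and 1 reversed, of 298 alternative counts of members 67 moved, of 80 alternative levels 8 moved, and of 32 alternative shares of nuclei with a UMI, which differ in the depth of the nuclei, 25 moved. With plain CPM, 0 members were counted lower in all nuclei and 0 in glutamatergic-like, 2 in PV-like and 1 in astrocyte-like nuclei. Of all genes, 4.52%, 5.87%, 9.53% and 13.1% were counted lower in these groups with plain CPM. With an absolute log2 ratio of 1, the lower counts were 0 in all nuclei, 0 in glutamatergic-like, 1 in PV-like, 0 in Sst-like and 0 in astrocyte-like nuclei. With a minimum of 10 CPM they were 1 in PV-like, 0 in Sst-like and 0 in astrocyte-like nuclei, and with no minimum Adra2a made 1 counted higher in all nuclei and 1 in glutamatergic-like nuclei. With no minimum, a gene still needed at least 1 UMI in each pool. A common UMI floor gave 0 lower in all nuclei and 1 in astrocyte-like nuclei, where taking out the RNA of other cells also gave 1. Without the tenth of nuclei with most UMIs, 2 were lower in all nuclei. Among the classes where a member was counted higher, the higher count in layer 6b-like neurons was 1 with a minimum of 10 CPM, with no minimum and with an absolute log2 ratio of 1. Adra2a, with 0 saline UMIs in layer 6b-like neurons, was left out there with no minimum. In claustrum type neurons it was 0 with a minimum of 10 CPM, and a stricter class margin gave 5 lower. In oligodendrocyte-like nuclei it was 0 with an absolute log2 ratio of 1, and the lower count was 0 with a minimum of 10 CPM and 0 with the estimated RNA of other cells removed.

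In female nuclei alone, 1 member was higher and 1 lower in PV-like (Adra1b higher) and in Lamp5-like nuclei (Adra2a higher). In male nuclei alone, 1 was lower in glutamatergic-like (Hrh3), PV-like and astrocyte-like nuclei and 1 higher in Sst-like nuclei (Adra2a). In Vip-like nuclei 2 were higher in female and 4 in male nuclei, in layer 6b-like nuclei 1 in male nuclei, and in claustrum type and oligodendrocyte-like nuclei 0 in either sex. Male Vip-like nuclei of the saline pool held 1 UMI of Hrh1 and 21 of Adra1a. In oligodendrocyte-like nuclei 1 was lower in each sex, and Hrh1 reversed to a ratio of 0.17 in female nuclei. With each lane left out in turn, lower counts ranged from 1 to 2 in all nuclei, 2 to 3 in glutamatergic-like, 1 to 3 in PV-like, 1 to 3 in Sst-like and 0 to 3 in Lamp5-like nuclei, 0 to 2 in layer 6b-like, 3 to 5 in claustrum type and 3 to 4 in oligodendrocyte-like nuclei, and higher counts from 0 to 1 in PV-like, Sst-like, Lamp5-like, claustrum type and oligodendrocyte-like, 1 to 2 in Vip-like and 1 to 4 in layer 6b-like nuclei. With a lane left out, 1 pool has a single lane, so the rule that lanes of the pools do not overlap is easier to meet. Those counts are therefore not like for like with the counts from all lanes. Apart from plain CPM, the shares of all genes counted under the alternatives of this section are not given here. The counts are thus no result about the members. The cause of these moves was otherwise not tested. In an alternative added once the data had been seen, equal weights for the glutamatergic subclasses, the ratios of Adra1a, Hrh1 and Hrh3 were -0.43, -0.46 and -0.39, and none was counted lower. The limits of these weights are those given above. Within single classes the depth limits the alpha-2 genes, Adra1d and Hrh3.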
